A study of Mus musculus with 6 samples.

Results

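A group of 36 hepatocyte transcripts, of 24346 gene symbols in all, was followed in sorted hepatic stellate cells, pericytes that hold the vitamin A of the liver. The members were chosen by symbol: 13 plasma proteins, 5 apolipoproteins, 3 fibrinogen chains, 4 urea cycle enzymes, 7 enzymes of gluconeogenesis and amino acid metabolism, and 4 genes comprising 3 cytochromes P450 and the urinary protein Mup3. All 36 were found in the deposited tables, and 31 averaged 1 FPKM or more. The unit, FPKM, divides the fragments of a gene by its transcript length in kilobases and scales by library depth, so that levels of different genes can be compared per length.

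Hepatocytes are the parenchymal cells of the liver and its main source of plasma protein. They export albumin, transport proteins, protease inhibitors, lipoproteins and clotting factors, and they hold the urea cycle, gluconeogenesis and most drug oxidation. Urea cycle and gluconeogenic enzymes are known from hepatocytes near the portal vein, and many cytochromes P450 from those near the central vein. Their messenger RNAs are very abundant in liver, so that small amounts can appear in preparations of other liver cells.

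The 6 libraries came from wild type C57BL/6 mice aged 35 weeks, with 1 library in each group. The sources were livers of mice on a normal diet, and the non-tumour region and the tumour region of livers of mice on a high fat diet; each source was taken through perfusion once at 37 degrees and once at 6 degrees. Total RNA came from the sorted fraction that lacked CD31 (an endothelial antigen) and CD45.2 (a leukocyte antigen) and carried CD49a (an integrin chain), and the series asks how warm incubation alters the transcriptome of these cells. Neither replicate numbers nor the number of animals behind a library were given, and nothing in the labels says that libraries came from separate animals. Any p-value therefore compares the size of an effect only with how far these 6 libraries depart from additive effects of source and temperature. That departure may be technical.

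All 18 stellate cell markers were at 1 FPKM or more in every library, summing to between 24389 and 39471 FPKM. So were 12 of 20 sinusoidal endothelial and 10 of 17 macrophage and Kupffer cell markers, whose sums reached at most 4846 and 2533 FPKM. Stellate markers were thus abundant, but the purity of the sort was not tested. The libraries held an estimated 1.59e+07 to 2.25e+07 fragments, which makes a single fragment equal to 0.0444 to 0.0628 FPKM for a 1 kb transcript. The normal diet library of 6 degrees stood apart for hepatocyte transcripts before any comparison was made: it held the highest value of 35 of the 36 members, the exception being Hp, and of 96.8% of the 31 members with a mean of at least 1 FPKM, against 15% of all 11557 genes at that level. Of the 31 members, 6 (Arg1, Pck1, Fbp1, Hpd, Gnmt and Cyp2c29) averaged under 1 FPKM over the other 5 libraries and so entered the tests only through this one. The medians, correlations and fits that follow are also given without it where they rest on it.

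Promoter sequences of a few members are shown first, because most members went up and down together across the libraries. Promoters of 28 of the 36 members were found in the RefSeq table (GRCm38.p6), as windows from 250 bases before to 50 bases after the annotated start. A TATA box, TATAAA on either strand, lay in 7 of these 28 (25%; Apoa2, Apob, Cyp1a2, Cyp2c29, Cyp3a11, Rbp4 and Tdo2), against 15.7% of 27025 genes with such windows. The HNF4 core CAAAGTCCA was in 1 of 28 members (3.57%, Cyp3a11; 0.555% of genes) and the C/EBP palindrome TTGCGCAA in 0 of 28 (0.207% of genes). The 150 bases before the start follow for the secreted Rbp4 and the P450 genes Cyp2c29 and Cyp3a11, on the strand of each gene from 5′ to 3′ with the match in capitals, and for Ass1, which had none of these motifs and a different pattern across libraries. These are exact letter matches and no measurement of binding.
Rbp4 (chr19:38124812-38124961, minus strand): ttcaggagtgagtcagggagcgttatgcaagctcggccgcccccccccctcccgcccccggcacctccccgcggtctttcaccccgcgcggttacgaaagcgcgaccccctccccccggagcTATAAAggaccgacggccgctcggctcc
Cyp2c29 (chr19:39286935-39287084, plus strand): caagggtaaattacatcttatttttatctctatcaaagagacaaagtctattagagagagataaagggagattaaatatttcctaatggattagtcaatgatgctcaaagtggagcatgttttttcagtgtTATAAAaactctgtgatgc
Cyp3a11 (chr5:145879855-145880004, minus strand): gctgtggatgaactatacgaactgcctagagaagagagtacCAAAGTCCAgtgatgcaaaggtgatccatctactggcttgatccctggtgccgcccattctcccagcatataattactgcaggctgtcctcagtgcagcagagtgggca
Ass1 (chr2:31470120-31470269, plus strand): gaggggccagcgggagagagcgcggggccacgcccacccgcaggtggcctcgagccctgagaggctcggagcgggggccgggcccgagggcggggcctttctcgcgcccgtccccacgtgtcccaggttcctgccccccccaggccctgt
The TATA box begins 28 bases before the start in Rbp4 and 19 bases before it in Cyp2c29, and the HNF4 core 109 bases before it in Cyp3a11, whose TATA box lies outside the bases shown. The Serpina1 genes are near-identical copies, so how Cuffdiff divided fragments between Serpina1a and Serpina1b is uncertain, and the same holds for Mup3, Cyp2c29 and Cyp3a11 with their gene families.

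Values are given below for 37 degrees and then for 6 degrees in each source. Summed over the 36 members, the level was 708 and 1314 FPKM in normal diet, 472 and 521 in the non-tumour region and 712 and 558 in the tumour region, which is 0.0821% to 0.267% of all FPKM of a library. Trf and Apoc1 alone made up 54.9% to 88.7% of these sums. Without Trf and Apoc1, the other 34 members summed to 79.7 and 592 FPKM in normal diet, 67.8 and 176 in the non-tumour region and 210.1 and 158 in the tumour region. The normal diet sum was thus 7.44-fold higher at 6 than at 37 degrees and the non-tumour sum 2.59-fold higher, whereas the tumour sum was 1.33-fold higher at 37 degrees. These are ratios between 1 library and another, with no replicate check. In bulk RNA, fewer cells or fragments of them and less RNA per cell cannot be told apart. Which cells the RNA of the members came from was not tested.

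**Figure D1:**
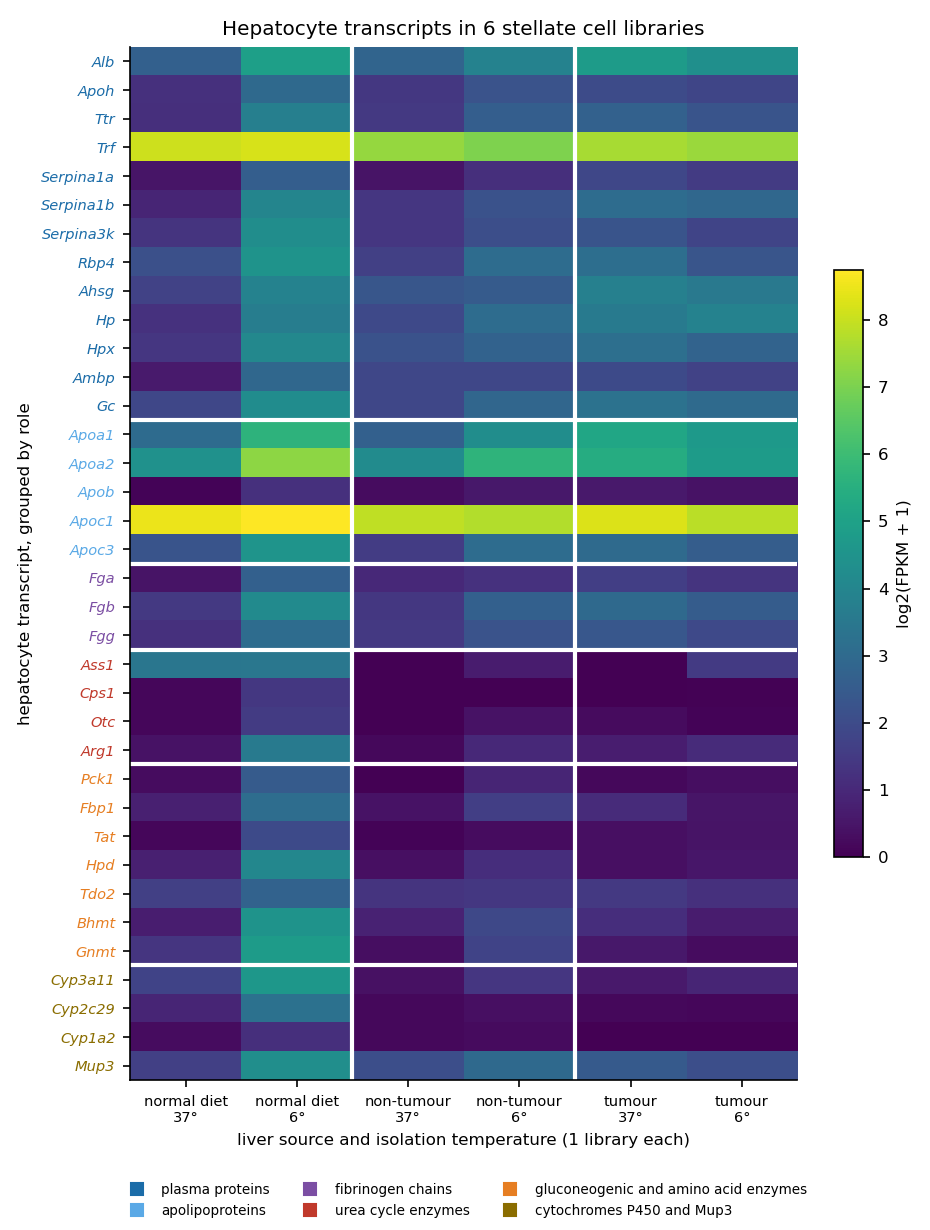
Heatmap of log2(FPKM + 1) for the 36 hepatocyte transcripts (rows, grouped and coloured by role) in the 6 libraries (columns, 1 library each). Trf and Apoc1 are bright in every library, and the normal diet library of 6 degrees holds the highest value of 35 of the 36 members.

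Albumin, the main carrier protein of plasma, was at 5.39 and 29.3 FPKM in normal diet, 6.01 and 13.7 in the non-tumour region and 26.6 and 19.4 in the tumour region. Alb was thus lower at 37 degrees in the normal diet and non-tumour pairs and higher in the tumour region pair. Its gene lies at chr5:90460897-90476602 (GRCm38, plus strand), and its values rested on an estimated 209 to 1342 fragments per library. Fetuin-A (Ahsg), an inhibitor of mineral deposition, was at 2.33 and 13.8 FPKM in normal diet, 4.01 and 4.68 in the non-tumour region and 13.04 and 10.6 in the tumour region. Haptoglobin (Hp), which binds free haemoglobin and is an acute phase protein, was at 1.4 and 11.9 FPKM in normal diet, 2.82 and 7.54 in the non-tumour region and 10.96 and 13.6 in the tumour region. Alb, Ahsg and Hp shared high tumour values: in the tumour region they were at 10.6 FPKM or more at either temperature. Hp was the single member whose highest value was not in normal diet at 6 degrees, and it lay in the tumour region at 6 degrees.

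The other transport proteins reached their highest level in the normal diet library of 6 degrees by a wider margin. Transthyretin (Ttr), a thyroxine carrier that travels with retinol-binding protein, was at 1.25 and 12.8 FPKM in normal diet, 1.74 and 5.08 in the non-tumour region and 5.59 and 3.79 in the tumour region. The retinol carrier Rbp4 was at 3.38 and 21.6 FPKM in normal diet, 2.15 and 7.54 in the non-tumour region and 8.02 and 3.98 in the tumour region. Haemopexin (Hpx), the plasma haem binder, was at 1.58 and 15.8 FPKM in normal diet, 3.61 and 5.68 in the non-tumour region and 8.08 and 5.81 in the tumour region. Normal diet at 6 degrees held the single high value of each. The vitamin D-binding protein Gc was at 2.65 and 18.2 FPKM in normal diet, 2.63 and 6.32 in the non-tumour region and 8.74 and 7.13 in the tumour region. Apoh, a phospholipid-binding glycoprotein that overlaps Prkca on the opposite strand, was at 1.34 and 6.86 FPKM in normal diet, 1.7 and 3.7 in the non-tumour region and 3.01 and 2.55 in the tumour region. For Ambp, the precursor of bikunin and a lipocalin, values were 0.547 and 6.5 FPKM in normal diet, 2.61 and 2.67 in the non-tumour region and 2.92 and 2.3 in the tumour region. In the non-tumour pair Ambp differed by 1.02-fold and Hpx by 1.57-fold, where Apoh, Gc and Ttr differed by 2.18-fold to 2.92-fold.

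Among the protease inhibitors, Serpina1a and Serpina1b encode alpha-1-antitrypsin. Serpina1a was at 0.4 and 5.1 FPKM in normal diet, 0.387 and 1.25 in the non-tumour region and 2.65 and 1.89 in the tumour region. Serpina1b was at 0.883 and 14.9 FPKM in normal diet, 1.62 and 3.58 in the non-tumour region and 7.6 and 6.49 in the tumour region. Serpina3k, a kallikrein-binding serpin, was at 1.49 and 18.5 FPKM in normal diet, 1.63 and 3.3 in the non-tumour region and 3.88 and 2.49 in the tumour region. In normal diet livers the 6 degree value was 12.8-fold higher for Serpina1a, 16.9-fold for Serpina1b and 12.5-fold for Serpina3k. Both tumour region libraries held more Serpina1a and Serpina1b than any other library but normal diet at 6 degrees.

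Transferrin (Trf), the plasma iron carrier, had a level and a pattern of its own among plasma proteins: 266 and 293 FPKM in normal diet, 164 and 130.3 in the non-tumour region and 191 and 173 in the tumour region. Its gene lies at chr9:103204001-103230444 (GRCm38), and its values rested on an estimated 6572 fragments or more. Trf was 1.10-fold higher at 6 degrees in normal diet and 1.11-fold higher at 37 degrees in the tumour region, while both normal diet values lay above all 4 values of the high fat diet livers. Apolipoprotein C1 (Apoc1), a small exchangeable protein of lipoproteins, was similar, at 362 and 428 FPKM in normal diet, 239 and 215 in the non-tumour region and 310.2 and 228 in the tumour region. Again both normal diet values were the highest. Over the 6 libraries the Pearson r of log2(FPKM + 1) with the mean of the other members tested was 0.46 for Trf and 0.57 for Apoc1, and from 0.76 to 0.99 for the remaining members but Ass1 (0.40), Hp (0.62) and Ahsg (0.69). These correlations share the weight of 1 high library. Without it, over 5 libraries, r was -0.44 for Trf, -0.26 for Apoc1, -0.41 for Ass1, -0.38 for Cyp2c29, -0.12 for Tdo2 and -0.03 for Cyp3a11. It was 0.14 for Gnmt, 0.26 for Hpd and 0.46 for Ambp. For the other members it was from 0.55 (Bhmt) to 0.98 (Fgb), with 0.89 for Alb and 0.81 for Hp.

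**Figure D2:**
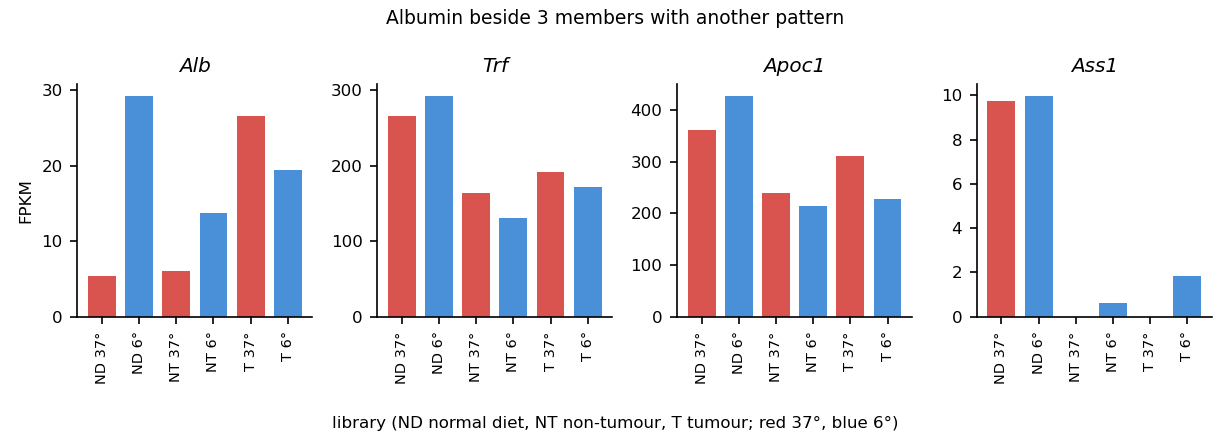
Bars of FPKM from 0 for Alb, Trf, Apoc1 and Ass1 in the 6 libraries (red 37 degrees, blue 6 degrees; each panel has its own axis). Alb is at 29.3 FPKM in normal diet at 6 degrees and 5.39 at 37 degrees, whereas Trf, Apoc1 and Ass1 differ little between the normal diet libraries and are lower in the high fat diet livers.

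The remaining apolipoproteins followed Alb. Apoa1, the main protein of high density lipoprotein, was at 7.33 and 49.3 FPKM in normal diet, 5.43 and 18.5 in the non-tumour region and 34.99 and 25.4 in the tumour region. Apoa2, its partner in the same particle, was at 20.5 and 151 FPKM in normal diet, 17.6 and 51.1 in the non-tumour region and 41.8 and 27.2 in the tumour region. Apoc3, an inhibitor of lipoprotein lipase, was at 3.87 and 22.1 FPKM in normal diet, 1.96 and 7.58 in the non-tumour region and 7.07 and 4.93 in the tumour region. In the normal diet and non-tumour pairs all 3 were higher at 6 degrees, by 3.42-fold for Apoa1 in the non-tumour region, and in the tumour pair all 3 were higher at 37 degrees. Apob, the large scaffold of very low density lipoprotein, had a mean under 1 FPKM and ranged from 0.0577 FPKM in normal diet at 37 degrees to 1.29 FPKM at 6 degrees.

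The fibrinogen chains form one clotting protein from neighbouring genes. Fgb (chr3:83040141-83049863, GRCm38) was at 1.74 and 17.1 FPKM in normal diet, 1.68 and 5.43 in the non-tumour region and 6.97 and 4.9 in the tumour region. Fga was at 0.364 and 5.39 FPKM in normal diet, 1.03 and 1.39 in the non-tumour region and 2.1 and 1.48 in the tumour region. Fgg, which an unnamed gene model overlaps on the other strand, was at 1.31 and 7.53 FPKM in normal diet, 1.71 and 3.73 in the non-tumour region and 4.22 and 2.84 in the tumour region. Fga was the lowest of the 3 in every library, and Fgb the highest in all but the non-tumour library of 37 degrees, where Fgg was marginally above it.

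Enzymes showed a steeper contrast between the sources. Among the urea cycle enzymes, Ass1, argininosuccinate synthase (chr2:31470207-31520672, GRCm38), was at 9.76 and 9.99 FPKM in normal diet, 0 and 0.601 in the non-tumour region and 0 and 1.82 in the tumour region. Ass1 was thus near 10 FPKM in both normal diet libraries, and listed at 0 in the high fat diet libraries of 37 degrees. Arg1, the arginase that releases urea, was instead at 0.331 and 11.2 FPKM in normal diet, 0.126 and 1.02 in the non-tumour region and 0.643 and 1.09 in the tumour region. Its single high value was that of normal diet at 6 degrees, 33.8-fold above its partner of 37 degrees. Cps1 and Otc, the mitochondrial entry steps of the cycle, had means under 1 FPKM. Cps1 ranged from 0 to 1.68 FPKM and Otc from 0 to 1.84 FPKM, both highest in normal diet at 6 degrees.

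Of the gluconeogenic enzymes, Pck1, which makes phosphoenolpyruvate, was at 0.213 and 4.71 FPKM in normal diet, 0 and 0.864 in the non-tumour region and 0.135 and 0.249 in the tumour region. Fbp1, the fructose bisphosphatase, was at 0.698 and 7.8 FPKM in normal diet, 0.336 and 2.11 in the non-tumour region and 1.11 and 0.4 in the tumour region. The non-tumour region library of 6 degrees held the second highest value of both. In amino acid metabolism, Gnmt, the glycine methyltransferase (chr17:46725664-46729168, GRCm38), was at 1.53 and 26.9 FPKM in normal diet, 0.26 and 2.42 in the non-tumour region and 0.463 and 0.225 in the tumour region. Bhmt, which methylates homocysteine, was at 0.626 and 21.7 FPKM in normal diet, 0.801 and 2.68 in the non-tumour region and 1.22 and 0.569 in the tumour region. Hpd, a tyrosine-degrading dioxygenase, was at 0.688 and 15.7 FPKM in normal diet, 0.278 and 1.2 in the non-tumour region and 0.283 and 0.44 in the tumour region. Gnmt, Bhmt and Hpd reached more than 15 FPKM in normal diet at 6 degrees and stayed under 3 FPKM elsewhere. Tdo2, the tryptophan dioxygenase, had the smallest ratio of highest to lowest value among the enzymes without a 0, 4.40, at 2.13 and 5.7 FPKM in normal diet, 1.46 and 1.69 in the non-tumour region and 1.76 and 1.3 in the tumour region. Tat, the tyrosine aminotransferase, had a mean under 1 FPKM and ranged from 0.0491 FPKM to 2.88 FPKM. Gene models on the opposite strand overlap Hpd (Psmd9), Bhmt and Gnmt; whether counting used strand was not stated.

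Cyp3a11, an enzyme of drug and steroid oxidation, was at 2.38 and 23.5 FPKM in normal diet, 0.318 and 1.63 in the non-tumour region and 0.5 and 0.875 in the tumour region. Cyp2c29, another drug-oxidising enzyme, was at 0.857 and 8.6 FPKM in normal diet, 0.135 and 0.293 in the non-tumour region and 0.138 and 0.117 in the tumour region. After normal diet at 6 degrees, the next highest value of either was that of normal diet at 37 degrees, above all 4 high fat diet libraries. Cyp1a2, known for caffeine oxidation, had a mean under 1 FPKM, with 1.29 FPKM in normal diet at 6 degrees and 0 in both tumour libraries. Mup3, a urinary pheromone carrier made in liver and secreted, was at 2.14 and 19.2 FPKM in normal diet, 3.29 and 6.98 in the non-tumour region and 4.53 and 3.31 in the tumour region. The non-tumour and tumour values of Mup3 lay above its normal diet value of 37 degrees, unlike those of Cyp3a11 and Cyp2c29.

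For temperature, the 31 members tested had a median log2 difference (37 minus 6 degrees) of -2.37 in normal diet, -0.84 in the non-tumour region and 0.32 in the tumour region, where the medians of all genes were between -0.0065 and 0.018. Of all 36 members, with no filter, 36 were lower at 37 degrees in normal diet and 33 in the non-tumour region, and 27 were higher in the tumour region. The normal diet count largely restates that 35 of the 36 had their highest value in normal diet at 6 degrees. Of the 31 tested, which include the 6 that passed through normal diet at 6 degrees, all were lower at 37 degrees in normal diet, 28 of them at least 2-fold, where 4.12% of all genes were that much lower and 0.779% that much higher. In the non-tumour region 29 were lower, 12 at least 2-fold (5.75% of all genes; 0.225% were 2-fold higher). In the tumour region 25 were higher at 37 degrees and 6 lower, with 1 member, Ass1, at least 2-fold lower (4.29% of all genes) and 0 at least 2-fold higher (1.96%). A total of 23 members were lower in both other pairs and higher in the tumour pair, which held for 7.56% of all genes. The 6 members lower at 37 degrees in all 3 pairs were Hp, Ass1, Arg1, Pck1, Hpd and Cyp3a11 (21.8% of all genes). Differences here are on the log2(FPKM + 1) scale, which understates ratios of low genes.

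**Figure D3:**
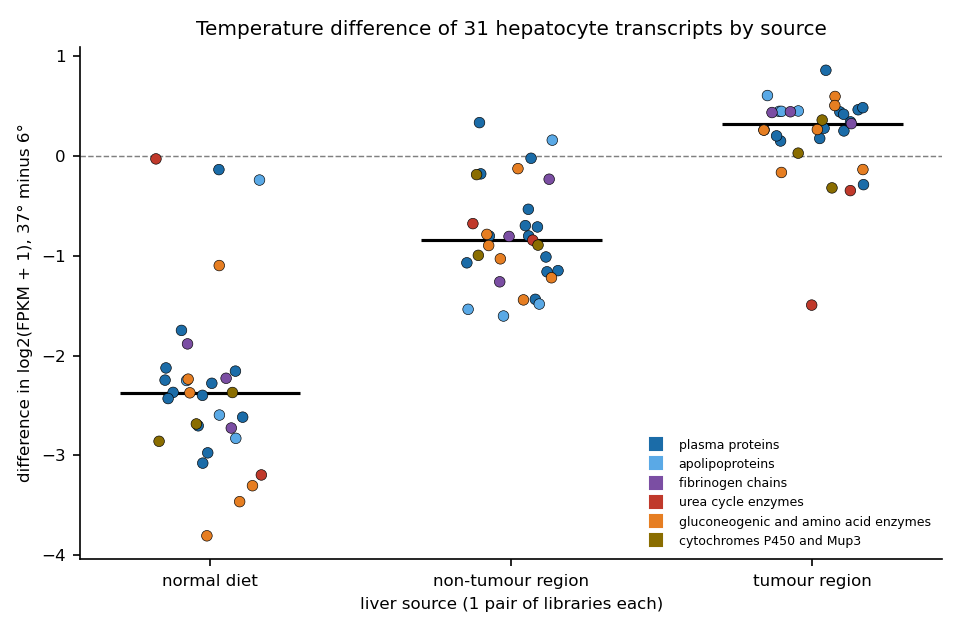
Difference in log2(FPKM + 1) between 37 and 6 degrees for the 31 members tested (points, coloured by role) in each source, with the median as a bar. The points lie below 0 in normal diet (median -2.37) and mostly below 0 in the non-tumour region (-0.84), while 25 of 31 lie above 0 in the tumour region.

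In the additive fit over the 3 pairs (limma, Benjamini-Hochberg adjustment over all genes), 5.13% of 11557 genes passed at an adjusted p under 0.05 for temperature, and 0 of the 31 members did. Of the members, 5 were lower and 0 higher at an unadjusted p under 0.05, where 12.1% of all genes were lower and 8.52% higher, and the median log2 fold change was -1.05 against 0.01 over all genes. Hp came closest, at -1.29 ± 0.39 (adjusted p = 0.152). The lead gene of each role had fold changes of -1.18 ± 0.57 (adjusted p = 0.318) for Fgb, -1.55 ± 0.67 (adjusted p = 0.274) for Gnmt, -0.73 ± 0.29 (adjusted p = 0.238) for Ass1 and -1.07 ± 0.55 (adjusted p = 0.346) for Mup3. For Trf the fold change was 0.11 ± 0.11 (adjusted p = 0.586) and for Apoc1 0.12 ± 0.14 (adjusted p = 0.67), both positive. Whether the temperature difference itself differs between the sources could not be tested, as a model with an interaction leaves no residual degrees of freedom. Without the tumour pair, 6 members were lower at 37 degrees past the threshold, where 3.84% of 11445 genes were: Alb at -1.66 (adjusted p = 0.0499, limma), Apoa1 at -2.10 (0.0140), Apoa2 at -2.16 (0.0285), Apoc3 at -1.89 (0.0113), Fbp1 at -1.80 (0.0486) and Rbp4 at -1.90 (0.0193). All 6 had their highest value in normal diet at 6 degrees and were higher at 37 degrees in the tumour pair left out. In the fit over all libraries, Fbp1 was tested only through normal diet at 6 degrees. Over the same 31 members, the median was -0.31 without the normal diet pair. With the filter applied anew to the 4 remaining libraries, 23 members were tested and 0 passed.

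Markers of other liver cells moved with temperature as well. The 20 sinusoidal endothelial markers summed to 135 and 1998 FPKM in normal diet, 738 and 4846 in the non-tumour region and 691 and 2478 in the tumour region, and all 20 had a negative fold change at 37 degrees in the limma fit, 19 of them passing. The 17 macrophage and Kupffer cell markers summed to 57.1 and 595 FPKM in normal diet, 42.03 and 711 in the non-tumour region and 1008 and 2533 in the tumour region, and all 16 tested had a negative fold change, 11 of them passing. None of the endothelial or macrophage markers was at 0 in all libraries. The library that was highest differed by list: normal diet at 6 degrees for hepatocyte transcripts, non-tumour at 6 degrees for endothelial and tumour at 6 degrees for macrophage markers. In the tumour pair the endothelial sum was 3.58-fold and the macrophage sum 2.51-fold higher at 6 degrees, where the sum of members without Trf and Apoc1 was lower at 6 degrees. The part of these cells in the hepatocyte values was not tested. Most bile duct markers were near 0, with at most 0.0467 FPKM of Krt19, 0.118 of Krt7 and 0.117 of Epcam, and 8 of the 10 were under 1 FPKM in all libraries. Sox9 reached 1.51 FPKM, and Spp1, which other cells express too, was at 3.79 to 59.5 FPKM.

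**Figure D4:**
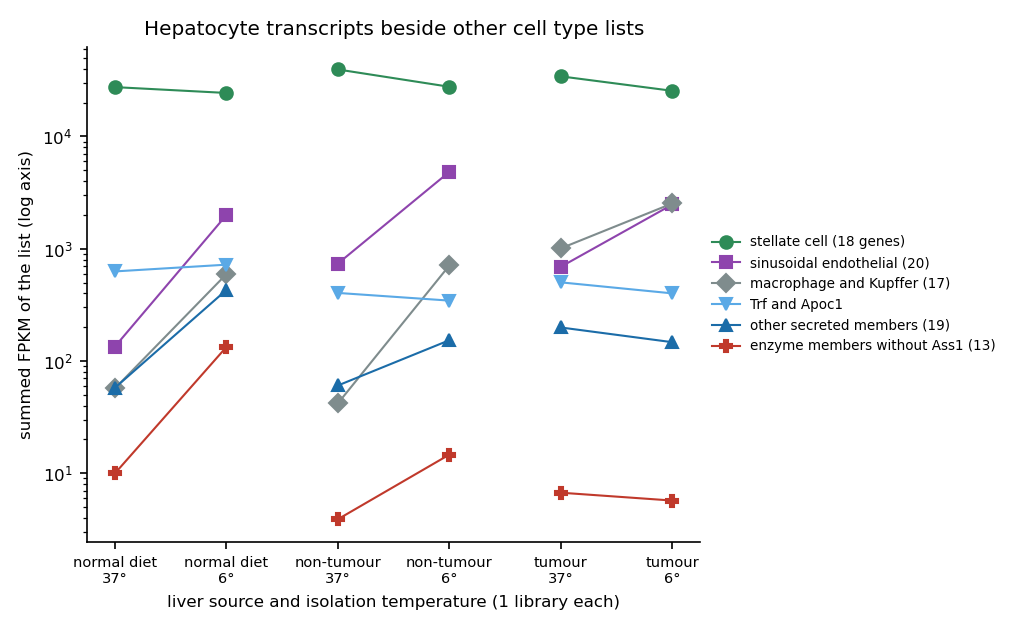
Summed FPKM (log axis) of marker lists in the 6 libraries, each line joining the 37 and 6 degree library of a source. Endothelial and macrophage lists are higher at 6 degrees in every source, the hepatocyte members without Trf, Apoc1 and Ass1 are higher at 6 degrees in normal diet and the non-tumour region but not in the tumour region, and Trf with Apoc1 stays between 345 and 721 FPKM.

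Between sources, the only members that passed were Ass1 and Trf, both in comparisons with normal diet. Ass1 fell by 2.70 ± 0.35 (adjusted p = 0.0149) on the log2 scale in the tumour region and by 3.10 ± 0.35 (adjusted p = 0.0132) in the non-tumour region (limma over all genes). Trf fell by 0.62 ± 0.13 (adjusted p = 0.0456) and 0.93 ± 0.13 (adjusted p = 0.0204). They were 2 of 31 members in either comparison, where 9.35% of all genes passed for the tumour region and 5.56% for the non-tumour region; the comparisons share the normal diet libraries. The Trf call for the tumour region was lost when any library was left out (adjusted p from 0.057 to 0.171), and its call for the non-tumour region without either non-tumour library or without normal diet at 6 degrees. The Ass1 calls were lost with a pseudocount of 0.1 FPKM (adjusted p = 0.0613 and 0.0559) and without normal diet at 37 degrees (0.0650 and 0.0585), and that for the non-tumour region also without either non-tumour library. With that pseudocount the folds were larger, at -4.51 and -5.24, and Cyp3a11 passed for the tumour region, at -3.32 (adjusted p = 0.0425, limma). Without normal diet at 37 degrees, normal diet rests on its 1 library of 6 degrees. Cyp3a11 was then at -3.54 in the tumour and -3.39 in the non-tumour region. Arg1 (-2.42 and -2.72), Cyp2c29 (-3.05 and -2.95) and Hpd (-3.38 and -3.07) were also lower. In that fit, Cyp3a11 and these 3 were tested only through that library, where each had its highest value. Of the 31 members, 30 were lower in the tumour and 31 in the non-tumour region in that fit. These counts largely restate that 30 of the 31 had their highest value in normal diet at 6 degrees, against 15% of all genes tested. Leaving out a tumour library cannot change the fold change of the non-tumour region against normal diet, which for Cyp3a11 was -2.29. Apoc1 had the same direction as Trf, at -0.56 ± 0.17 (adjusted p = 0.108) in the tumour and -0.79 ± 0.17 (adjusted p = 0.0623) in the non-tumour region; it passed in both with quantile normalization (0.0400 and 0.0352), and in the non-tumour comparison without either tumour library (0.0291 and 0.0282). Between tumour and non-tumour regions 0 of 31 members passed (0.45% of all genes), 1 of them higher at an unadjusted p under 0.05 (6.37% of all genes were), with a median of 0.31. Other left-out libraries gave the opposite direction. Without normal diet at 6 degrees, 21 of the 31 members were higher and 10 lower in the tumour region than in normal diet, with Ahsg at 1.96. Without the tumour library of 6 degrees, 20 were higher and 11 lower, with Apoa1 at 1.86. Apoa1 was then at 2.73 between tumour and non-tumour regions, with 30 members higher and 1 lower. Each of these fits leaves 1 library in a source.

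The medians over members changed sign with single libraries. At 37 degrees, tumour minus normal diet had a median of 0.97, with 22 of 31 members higher. At 6 degrees the median was -1.55, with 30 of 31 lower. This count restates that 30 of the 31 had their highest value in normal diet at 6 degrees. Of the 31, 6 entered the tests only through that library. For all genes tested, the median of each source difference at 37 or 6 degrees lay between -0.018 and 0.04. In the fit over both temperatures the member median for tumour minus normal diet was -0.57. Over the same 31 members it became 0.50 without the normal diet library of 6 degrees and 0.55 without the tumour library of 6 degrees. For the non-tumour region against normal diet the medians were -0.03 at 37 degrees and -1.42 at 6 degrees, and -0.83 in the fit (0.31 over the same members without normal diet at 6 degrees). Tumour minus non-tumour had medians of 0.66 at 37 degrees, with 30 of 31 members higher, and -0.21 at 6 degrees, with 18 lower; the fitted 0.31 became -0.57 without the tumour library of 37 degrees. The macrophage list was also higher in the tumour region than in normal diet, with 8 of 16 tested markers passing. Its part in these values was not tested.

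The balance of secreted protein and enzyme transcripts differed between the sources. The 19 secreted members other than Trf, Apoc1 and Mup3 summed to 57.8 and 429.7 FPKM in normal diet, 60.6 and 153 in the non-tumour region and 199 and 147 in the tumour region, and the 13 enzymes other than Ass1 to 9.998 and 133 FPKM in normal diet, 3.9 and 14.7 in the non-tumour region and 6.72 and 5.72 in the tumour region. Enzymes thus came to 17.3% and 31.1% of the secreted sum in normal diet cells, 6.44% and 9.58% in the non-tumour region and 3.38% and 3.89% in the tumour region. Both normal diet shares lay above all 4 of the high fat diet livers, and both tumour shares below all others. Relative to Alb in the same library, Gnmt was at 28.5% and 92.0% in normal diet, 4.32% and 17.7% in the non-tumour region and 1.74% and 1.16% in the tumour region. Hpd was at 12.8% and 53.5%, 4.62% and 8.76%, and 1.06% and 2.27% of Alb in the same order. Secreted members differed among themselves in this ratio. Apoa1 was at 90.2% to 168% of Alb, and Ahsg at 34.1% to 66.7%, with the tumour values inside the range of the others. Apoa2 was at 380% and 517% of Alb in normal diet and at 157% and 140.3% in the tumour region, Apoc3 at 71.8% and 75.6% against 26.6% and 25.5%, and Rbp4 at 62.8% and 73.9% against 30.1% and 20.6%. A lower ratio in the tumour region was thus not limited to enzymes.

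**Figure D5:**
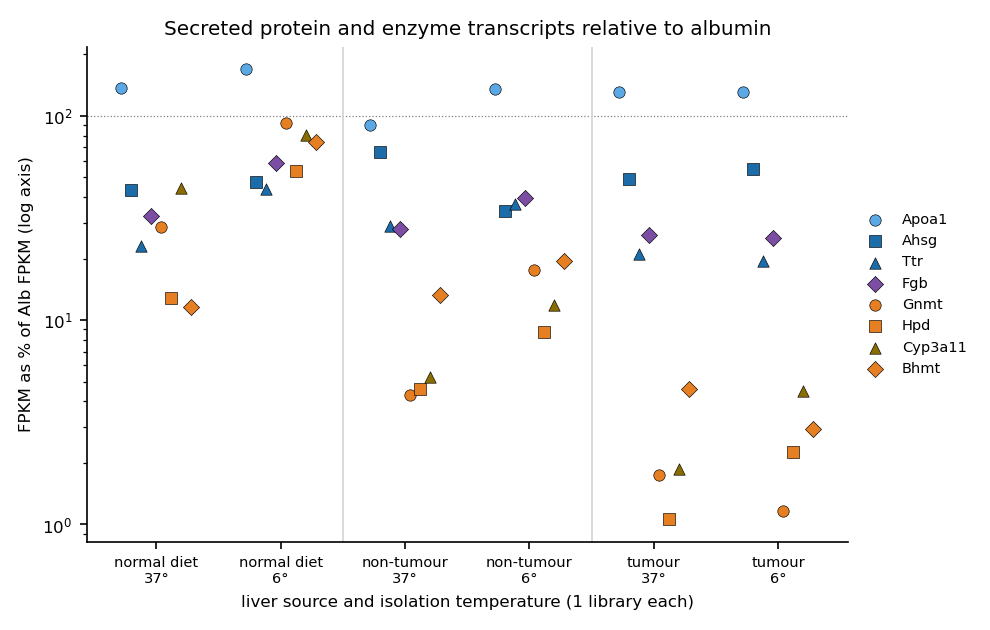
FPKM as percent of Alb FPKM in the same library (log axis) for 4 secreted proteins (blue and purple) and 4 enzymes (orange and brown). The enzymes Gnmt, Hpd, Cyp3a11 and Bhmt lie lower in the tumour region than in normal diet, whereas Apoa1 stays between 90.2% and 168%; the secreted Ttr and Fgb also lie somewhat lower in the tumour region than in normal diet.

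The fitted differences were described over all members of both kinds with no filter, since 6 of the 9 enzymes that passed the filter, Ass1 aside, did so only through normal diet at 6 degrees. For tumour minus normal diet, the 19 secreted members had a median of 0.01, with 11 positive, and the 13 enzymes one of -1.15, with 13 negative. Without normal diet at 6 degrees these medians were 1.11 (19 positive) and -0.28 (10 negative), so that the median of the secreted members was the higher one with or without that library. For non-tumour minus normal diet the medians were -0.45 and -0.95, or 0.45 and -0.12 without that library, and for tumour minus non-tumour 0.46 and -0.15. None of these secreted members or enzymes passed in these comparisons in limma with all 6 libraries and a pseudocount of 1 FPKM. Cyp3a11 came closest for the tumour region, at -2.44 ± 0.59 (adjusted p = 0.0654), and its fold change was -1.34 without normal diet at 6 degrees. Gnmt was at -2.65 ± 0.82 (adjusted p = 0.117), or -1.22 without that library, and Fgb at -0.04 ± 0.69 (adjusted p = 0.978). Against normal diet, the non-tumour region was at -2.02 ± 0.82 (adjusted p = 0.24) for Gnmt, -0.77 ± 0.69 (adjusted p = 0.603) for Fgb and -0.45 ± 0.67 (adjusted p = 0.776) for Mup3, and the tumour region at -0.71 ± 0.67 (adjusted p = 0.563) for Mup3. Between tumour and non-tumour regions the lead genes of the 6 roles lay from -0.63 (Gnmt) to 0.72 (Fgb), the smallest adjusted p being that of Trf, at 0.31 ± 0.13 (adjusted p = 0.508). The difference between the lists was not tested.

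Hepatocyte genes outside the members were read from lists chosen by function. Of 42 other secreted proteins, 16 had a mean of at least 1 FPKM, and of 46 other enzymes and transporters, 16. Among those tested, 11 of 16 secreted proteins and 12 of 16 enzymes were highest in normal diet at 6 degrees, against 15% of all genes tested. Of these, at least Plg, Ces3a, Akr1c6 and Uox averaged under 1 FPKM over the other libraries. They were tested only through normal diet at 6 degrees, so the counts partly restate the filter. The most abundant of the secreted list were Itih3, Vtn and Itih4, the first and last being heavy chains of inter-alpha-inhibitor and Vtn the adhesion protein vitronectin. Itih3 was at 54.4 and 37.3 FPKM in normal diet, 105 and 96.8 in the non-tumour region and 86 and 74.3 in the tumour region. Vtn was at 21.4 and 12.9 FPKM in normal diet, 52.5 and 39.4 in the non-tumour region and 68.01 and 55.9 in the tumour region. Itih4 was at 14.98 and 12.6 FPKM in normal diet, 48.8 and 67.3 in the non-tumour region and 38.8 and 33.1 in the tumour region. All 3 rose in both regions of the high fat diet livers against normal diet, Vtn by 1.83 ± 0.13 (adjusted p = 0.00694) in the tumour and 1.40 ± 0.13 (adjusted p = 0.00824) in the non-tumour region (limma). Apoc2, the activator of lipoprotein lipase, fell at 37 degrees, at -1.55 ± 0.25 (adjusted p = 0.0334), and rose in the tumour region against normal diet, at 2.78 ± 0.31 (adjusted p = 0.0105).

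Among the other enzymes, the most abundant were Cyp27a1, a sterol hydroxylase, the glutamine synthetase Glul and the fatty acid-binding protein Fabp1. Fabp1 had its single high value in normal diet at 6 degrees, as most members did, at 7.7 and 106 FPKM in normal diet, 6.7 and 32.2 in the non-tumour region and 14.8 and 11.9 in the tumour region. Cyp27a1 was at 82.2 and 76.6 FPKM in normal diet, 57.5 and 39.6 in the non-tumour region and 51.8 and 37.8 in the tumour region, and Glul at 19.7 and 25.03 FPKM in normal diet, 31.2 and 40.2 in the non-tumour region and 78.02 and 34.6 in the tumour region. Cyp27a1 and Cyp2e1, the ethanol-oxidising P450, were the 2 of 16 that passed, and both fell in both regions of the high fat diet livers. Cyp2e1 was at 39.4 and 48.7 FPKM in normal diet, 4.02 and 6.45 in the non-tumour region and 4.34 and 3.53 in the tumour region, a log2 fold change of -3.19 ± 0.21 (adjusted p = 0.00694) for the tumour and -2.87 ± 0.21 (adjusted p = 0.00653) for the non-tumour region. As with Ass1, both normal diet values of Cyp2e1 were high and close to each other, so its pattern differed from that of Alb.

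Hepatocyte transcription factors were mostly at low values. Of 15, 11 were under 1 FPKM in all libraries, including Hnf4a (0 to 0.279 FPKM), a regulator that defines hepatocytes. Nr1h4, the bile acid receptor, was at 121 to 196 FPKM and Creb3l3 at 12.98 to 23.4 FPKM in every library. Of 11 fetal and tumour hepatocyte genes 4 were tested, of which 1 rose and 1 fell in the tumour region against normal diet, where 9.35% of all genes passed. In the tumour region Ly6d rose, at 2.11 ± 0.31 (adjusted p = 0.0188), with 0 and 0.323 FPKM in normal diet and 1.93 and 7.42 in the tumour region, and the proliferation gene Mki67 fell, at -1.22 ± 0.23 (adjusted p = 0.0379). Mki67 also fell in the non-tumour region against normal diet, at -1.84 ± 0.23 (adjusted p = 0.0167, limma). The fetal liver gene Afp was at most 0.231 FPKM.

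The genes most like the members in pattern, by Pearson r of log2(FPKM + 1) with the mean of the 31 members over 6 libraries, were Ces3a (0.998), Serpinc1 (0.992), Ttc36 (0.988), Akr1c6 (0.986), Uox (0.984), Serpina1d (0.983), Aadac (0.980), Plg (0.978) and Serpina1c (0.975). Without normal diet at 6 degrees these r ranged from 0.836 (Serpina1c) to 0.988 (Ces3a). Candidates needed a mean of at least 1 FPKM over all 6 libraries. Ces3a, Ttc36, Akr1c6, Uox, Aadac and Plg averaged less than that over the other libraries, and so were candidates only through normal diet at 6 degrees. Serpinc1 encodes antithrombin, Plg plasminogen and Uox urate oxidase. Uox was at 0.571 and 11.5 FPKM in normal diet, 0.163 and 0.991 in the non-tumour region and 1.1 and 1.21 in the tumour region. Serpinc1 was at 1.22 and 6.73 FPKM in normal diet, 0.792 and 2.06 in the non-tumour region and 2.03 and 1.39 in the tumour region. Both had their single high value in normal diet at 6 degrees. Across the 36 members, the Spearman correlation of levels between libraries was 0.913 to 0.961 among the 4 high fat diet libraries, 0.826 between the normal diet libraries, and as low as 0.674 elsewhere; it is taken across genes, which are not independent replicates.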

How the data were processed

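RNA of 6 libraries (1 for each combination of 3 liver sources and 2 temperatures) was deposited by the authors as FPKM for 24346 symbols; TopHat2 2.1.1, Bowtie2 and Cuffdiff 2.2.1 with the mm10 build were used, per the submitters' processing notes. For annotation, strand and scaling, the settings are not given in the sources. Depth was estimated from the steps between low FPKM values. Genes were tested on log2(FPKM + 1) of the deposited values with limma 3.58.1 (R 4.3.3, empirical Bayes with trend), keeping a mean of at least 1 FPKM and leaving out 1314 small RNA symbols, which left 11557 genes. Terms were source and temperature (2 residual degrees of freedom, 5.369 in all). P-values were Benjamini-Hochberg adjusted over all genes, with 0.05 as threshold, and the script was tested on simulated data. Errors are standard errors. All 36 members are accounted for, those under the filter by range. The lead of each role has full test values. In the other hepatocyte lists the highest 3 by mean and the genes that passed are named, as are genes most alike by rank; items withheld from this text are not reported here. Apoc2, Cyp2e1, Ly6d and Mki67, the Uox and Serpinc1 levels and the marker levels were picked after their values were seen. Members and lists were chosen with earlier results of these data known. Promoters come from RefSeq (GRCm38.p6) and gene positions from GENCODE on GRCm38, the mm10 build. Alternatives were another pseudocount, filters, scalings, model terms and left-out libraries; fixed member sets with no new filter, and correlations without normal diet at 6 degrees, were added after seeing the data.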

Additional observations from a re-analysis of the deposited data

How the results depend on the processing

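No paired analysis was possible because the labels give no replicate numbers, beyond the pairing of the temperatures by source that the model already holds. Of the member medians, the direction kept under every other pseudocount, filter, scaling and model term tried (24 of 24), and it turned only when libraries were left out. Dropping a model term could not change these medians, as every source has a library at each temperature. For tumour against normal diet the median went from -0.572 to -0.0408 with a mean of at least 5 FPKM, where 8 of 17 members were higher and 9 lower. A library left alone in its source is assumed there to vary like the others.

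The members passing numbered 0 for temperature, and 0 to 6 when a library or source pair was left out. For the tumour region against normal diet they numbered 2; they became 1 with a pseudocount of 0.1 FPKM (Cyp3a11, where Ass1 and Trf were lost), 3 with quantile normalization, 0 with a mean of at least 5 FPKM, 0 with no filter, 0 with no temperature term, and 1 to 4 with a library left out. For the non-tumour region against normal diet they numbered 2; they became 1 with a pseudocount of 0.1 FPKM, 3 with quantile normalization, 1 with a mean of at least 5 FPKM, 0 with no filter, 0 with no temperature term, and 0 to 5 with a library left out. For tumour against non-tumour they numbered 0, and 0 to 1 with a library left out.

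Over all genes, 593 passed for temperature, against 330 with a mean of at least 5 FPKM, 0 with no filter (where limma gave 1009 higher genes and 1677 lower ones before adjustment, at p under 0.05), 0 with no source term and 66 to 471 with a library or pair left out. For tumour against normal diet 1081 passed (702 higher, 379 lower), against 1012 (541 and 471) with quantile normalization, 681 with a mean of at least 5 FPKM, 0 with no filter, 4 with no temperature term and 303 to 962 with a library left out. For non-tumour against normal diet 643 passed, against 0 with no filter, 4 with no temperature term and 0 to 900 with a library left out. For tumour against non-tumour 52 passed, against 0 with a pseudocount of 0.1 FPKM, a mean of at least 5 FPKM, no filter or no temperature term, and 0 to 161 with a library left out.

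With a library left out and the filter applied anew (25 members tested without normal diet at 6 degrees), the member median ranged from -1.25 to 0.862 for tumour against normal diet, from -1.81 to 0.391 for non-tumour against normal diet and from -0.569 to 1.13 for tumour against non-tumour. For single genes, tumour against normal diet ranged from -1.25 to 1.17 for Fgb, from -1.92 to 0.501 for Mup3 and from -0.279 to 1.82 for Alb, and with a pseudocount of 0.1 FPKM Fgb was at 0.0769. Non-tumour against normal diet ranged from -1.92 to 0.391 for Fgb, from -1.65 to 0.763 for Mup3 and from -1.42 to 0.513 for Alb. Tumour against non-tumour ranged from -0.016 to 0.472 for Apoc1, from -0.489 to 1.94 for Fgb, from -0.162 to 0.978 for Ass1, from -1.99 to 0.721 for Gnmt, from -1.34 to 0.812 for Mup3 and from -0.954 to 0.653 for Cyp3a11. The temperature difference of Apoc1 ranged from -0.0429 to 0.301. Over a fixed set of the 31 members, added after seeing the data, the median without normal diet at 6 degrees was 0.50 for tumour and 0.31 for non-tumour against normal diet. The cause of these changes was not tested.

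Without Trf and Apoc1, an alternative chosen after seeing the data, the member sums were 79.66 and 592.4 FPKM in normal diet (37 and 6 degrees), 67.75 and 175.6 in the non-tumour region and 210.1 and 157.9 in the tumour region. Depth limits the lowest members: Gnmt rested on an estimated 4.56 fragments in its lowest library.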
